A study of Mus musculus with 48 samples.

Results

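The MCM2-7 complex is a ring of 6 related proteins, encoded by Mcm2, Mcm3, Mcm4, Mcm5, Mcm6 and Mcm7, that unwinds DNA ahead of the replication fork. Outside S phase the origin recognition complex, CDC6 and CDT1 load it on DNA, which licenses an origin for a later round of replication. CDC45 and the GINS proteins then turn the loaded ring into an active helicase. MCM genes are known targets of the E2F factors, which RB family proteins hold in check, and hepatocytes of adult liver rarely divide. The 6 genes were found by the gene symbol that the array annotation gives to each probe set. They were read by 19 of the 45101 probe sets, and 12 of these had a mean intensity of at least 100, while 7 were dimmer and lay near the background. The brightest probe set stands for each gene where genes were compared, among 18194 genes with a single symbol.

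RNA came from livers of male C57BL/6J mice, 6 weeks old by the methods of the study, that had been entrained to equal spans of light and dark and then moved to constant darkness. Circadian time (CT) counts hours from a subjective dawn, and subjective dusk falls at CT12. Livers of several mice were pooled each hour between CT18 and CT65, and each of the 48 pools was read on 1 Affymetrix mouse expression array. No hour was repeated within a cycle, no genotype or drug was compared, and the spread of each estimate therefore came from the scatter of pools around a fitted wave. In whole liver, fewer cells that express a gene and less RNA in each of them cannot be told apart.

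Array medians were between 95.2 and 110.9. They lay near the background, as 49.5% of probe sets had a mean under 100, so they say little of the scale of brighter ones. Medians at CT61 to CT65 were 105.8 to 110.9, and no other pool was above 105. All 6 hepatocyte markers were bright in every pool, with Alb (albumin) between 697353 and 831266. The pools at CT60 to CT65 stood apart. At these hours 53.7% of all probe sets had their highest 6 h mean, and the lowest median correlation with the other arrays was 0.984, at CT61. By that correlation the 6 pools were not separate from all others, since they reached 0.990 while CT27 was at 0.989 and CT25 and CT31 at 0.990. CT27 and CT31 hold the highest Mcm7 value and the lowest of Mcm4, Mcm5 and Mcm6. Results on the MCM genes are therefore given with and without these 6 pools where they differ.

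Promoter sequence was examined because the MCM genes are textbook E2F targets and their rhythm is described below. RefSeq promoter windows of build GRCm38.p6, from 250 bases before to 50 after a start site, were held for Mcm2, Mcm3, Mcm5, Mcm6 and Mcm7, with a pair of start sites for Mcm7. Both strands were searched for the E2F words TTTCCCGC, TTTCGCGC, TTTGCCGC and TTTGGCGC. One of them was found in 4 of the 5 genes and in 4 of their 6 promoter windows, against 2.26% of 32851 promoters. Of the Mcm7 start sites, 1 had an E2F word in its window and the other had none. The words can overlap, and a word on 1 strand can share bases with a word on the other. Capitals mark the word in each 30-base window, written 5′ to 3′ on the gene's strand, and positions count the start site as 1, with no 0.
Mcm3, position 39, chr1:20820263-20820292, minus strand: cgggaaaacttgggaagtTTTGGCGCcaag
Mcm5, position -153, chr8:75109345-75109374, plus strand: gcgccaagaacTTTCGCGCcaaaacgtcca
Mcm6, position -110, chr1:128359797-128359826, minus strand: tggcgtatgctTTTGGCGCgaaaagtgcgt
Mcm6, position -47, chr1:128359734-128359763, minus strand: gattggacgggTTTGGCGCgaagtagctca
Mcm7, position 17, chr5:138171849-138171878, minus strand: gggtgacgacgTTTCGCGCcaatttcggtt

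A CCAAT box, searched as CCAAT on both strands, lay in the promoters of all 5 genes, against 37.4% of all promoters. In Mcm2, whose window held no E2F word, the box lay at position -175, as the reverse complement ATTGG. It is shown because it was the motif that all 5 genes had in common.
Mcm2, position -175, chr6:88898939-88898968, minus strand: tctagaaggccggATTGGtcctcagagcca

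The clock elements CACGTG (the E-box, bound by CLOCK and BMAL1) and TTATGTAA or TTACGTAA (D-box words) were in none of the 5 genes' windows, against 7.15% and 1.06% of all promoters. These matches describe the letters in these windows only.

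Mcm7, the subunit that pairs with MCM4 in the most active part of the ring, had the largest fitted 24 h wave of the 6 genes over all pools. Its brightest probe set, 1438320_s_at, read 354.8 at its lowest (CT61), 2376 at the median and 4310 at its highest (CT27). The highest pools lay around subjective dawn of the first day, and the 6 pools from CT60 onwards were below all others, which read at least 1368. Mcm4 (1436708_x_at), its neighbour in the ring, read 248.1 at its lowest (CT31), 491.1 at the median and 1110 at its highest (CT42), so its extremes lay in the first day and the second night.

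Mcm5 (1436808_x_at), which sits beside MCM2 at the gate where the ring opens, read 257.2 at its lowest (CT31), 450.4 at the median and 1114 at its highest (CT39). Mcm6 (1416251_at), which contacts CDT1 during loading, read 544.6 at its lowest (CT27), 849.6 at the median and 1474 at its highest (CT43). For both genes the high pools were mainly those of the second night.

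Mcm2 and Mcm3 moved little. Mcm2 (1434079_s_at), the other side of the gate, read 104.9 at its lowest (CT24), 130.1 at the median and 227.9 at its highest (CT43), and 31 of its 48 pools were within 5% of the median. Mcm3 (1449705_x_at), the subunit that ORC and CDC6 recruit, read 201.7 at its lowest (CT37), 238.0 at the median and 396.4 at its highest (CT65). The 4 highest Mcm3 pools included CT63, CT64 and CT65, inside the stretch of arrays that stood apart.

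**Figure D1:**
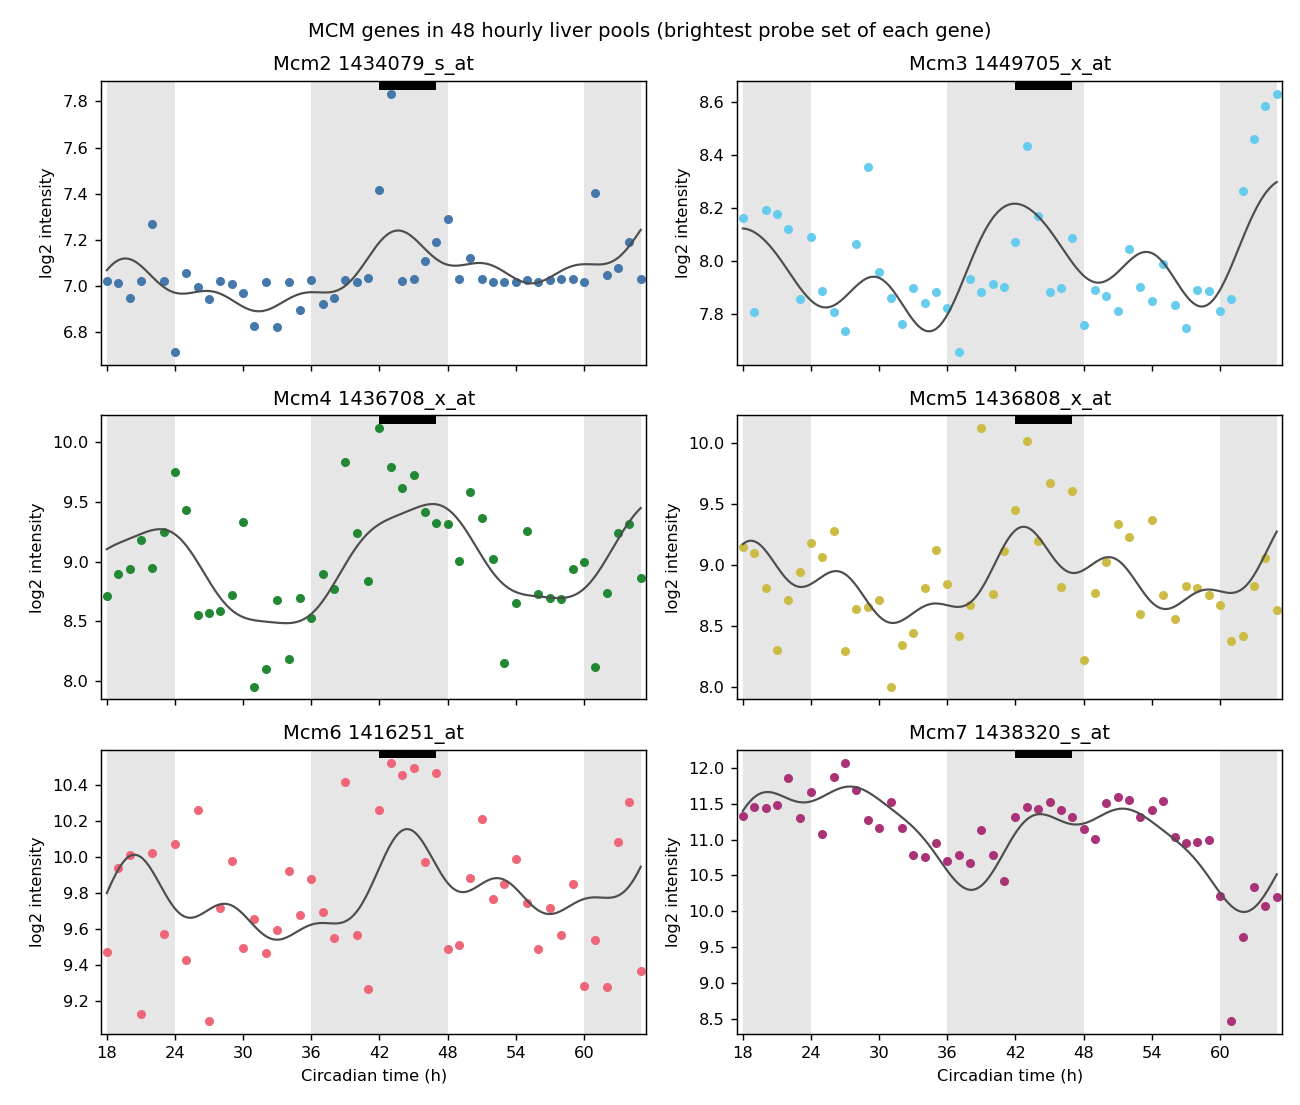
Log2 intensity of the brightest probe set of each MCM gene (y axis) against circadian time in hours (x axis), 1 point per pool, with the fitted linear trend and 24, 12 and 8 h waves as a line and the subjective night shaded. The black bar marks CT42 to CT47, where Mcm4, Mcm5 and Mcm6 had their highest 6 h means; Mcm7 fell to 354.8 at CT61.

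Whether the 6 genes cycled was asked with a linear trend and waves of 24, 12 and 8 h fitted to log2 intensities of all probe sets in limma, with Benjamini-Hochberg adjustment over all 45101. A 24 h component was called at an adjusted p under 0.05. It was found in 12 of the 19 MCM probe sets (63.2%), against 47.4% of all probe sets. Among probe sets with a mean of at least 100 it was 9 of 12, against 50.1%, and among the dim ones 3 of 7, against 44.6%. The 12 came from Mcm2, Mcm3, Mcm4, Mcm5 and Mcm7, while none of the 3 Mcm6 probe sets was called. Through the brightest probe set 5 of the 6 genes were called, against 52.7% of all genes. Without CT60 to CT65 it was called in 9 of the 19 MCM probe sets (47.4%), against 21.9% of all probe sets, and in 4 of the 6 genes, against 29.2% of all genes. Mcm3 was then no longer called (adjusted p = 0.107).

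The waves of Mcm7 and Mcm4 were the largest over all pools, and their order depended on the pools and probe sets. Mcm7 had a 24 h amplitude of 0.53 ± 0.08 on the log2 scale (SE, n = 48 pools), a 2.09-fold range from trough to peak, with an adjusted p of 1.41e-05. Mcm4 had an amplitude of 0.47 ± 0.09, a 1.91-fold range, with an adjusted p of 0.000164. Without CT60 to CT65 Mcm4 had the larger amplitude, 0.51 against 0.38, as it did for the mean of all probe sets of a gene, 0.35 against 0.29. Its other probe set, 1416214_at, gave 0.22 ± 0.05 at an adjusted p of 0.000881. Mcm4 and Mcm7 were called through every one of their 6 probe sets.

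Mcm5 followed at 0.27 ± 0.09, a 1.45-fold range, with an adjusted p of 0.0386 close to the threshold. Leaving out any one of 9 pools (CT31, CT32, CT33, CT42, CT43, CT45, CT47, CT53 or CT56) ended that call, with adjusted p between 0.0513 and 0.0855. Mcm3 had an amplitude of 0.15 ± 0.04 (adjusted p = 0.00802) and Mcm2 of 0.11 ± 0.03 (adjusted p = 0.0202), fitted ranges of 1.23-fold and 1.16-fold. Mcm6 had 0.20 ± 0.08 and was not called (adjusted p = 0.103), but it was called without the pool at CT21 (adjusted p = 0.0362) and in the second cycle alone (adjusted p = 0.0260).

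Probe sets of 1 gene did not always give the same result. For Mcm3 a dim pair, 1426652_at and 1426653_at, was called with amplitudes of 0.01 and 0.14, whereas 1420028_s_at, with a mean above 100, gave 0.05 ± 0.05 (adjusted p = 0.659). Its values correlated with those of the brightest Mcm3 probe set at r = 0.04 over 48 pools. The suffixes _x_at and _s_at mark probe sets that can share sequence with other transcripts, and the brightest probe sets of all genes but Mcm6 carry 1 of them.

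Shorter waves were rare. A 12 h component was called in 1 of the 19 probe sets, Mcm7 1416030_a_at (amplitude 0.23, adjusted p = 0.0199), against 4.89% of all, and it was lost without the pool at CT43. An 8 h component was called in 0 of 19, against 1.35% of all probe sets, and 3 of the 19 had an unadjusted p under 0.05 in limma, against 12.9% of all. At 12 h the unadjusted count was 4 of 19, against 13.5%. The methods of the study name Fisher's G-test and COSOPT, which fits cosine curves. Here the G-test was joined with a cosine fit built after COSOPT, not COSOPT itself. With q under 0.05 in both, at any period, 5 of the 19 were rhythmic, against 12.1% of all. These were both Mcm4 probe sets and 3 of the 4 of Mcm7, of which 1416030_a_at had its fitted period at the limit of the search, 30 h.

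The peak times formed an early group and a late gene. The 8 called probe sets of Mcm2, Mcm3, Mcm4 and Mcm5 peaked between CT18.2 and CT21.1, late in the subjective night. Of these 8, 5 had a mean of at least 100, and they peaked between CT19.2 and CT21.1. The CT18.2 peak was that of the dim Mcm3 1426652_at, with an amplitude of 0.01. It was not called without CT60 to CT65 (adjusted p = 0.131) or after quantile normalization (adjusted p = 0.454). The 4 probe sets of Mcm7 peaked between CT23.5 and CT1.78, around subjective dawn. For reference, Arntl, which encodes the clock activator BMAL1, peaked at CT22.3, Dbp, a direct target of CLOCK and BMAL1, at CT10.2, and Wee1, which restrains entry into mitosis, at CT13.0.

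Through the brightest probe sets Mcm3 peaked at CT19.2, Mcm2 at CT20.3, Mcm5 at CT20.6, Mcm4 at CT21.1 and Mcm6 at CT21.6, the last without a call. The 95% interval was 19.7 to 22.4 for Mcm4 and 0.638 to 2.93 for Mcm7. Neighbours among the first 5 could not be separated: the intervals of all 10 differences between them included 0, yet they reached from -5.96 to 4.22 h, so differences of some hours remained possible. Mcm7 peaked 4.21 h later than Mcm6 and 6.59 h later than Mcm3, with Mcm2, Mcm4 and Mcm5 in between, and the interval of all 5 differences lay on 1 side of 0. Without CT42 to CT47 Mcm7 peaked at CT2.48, while Mcm6 was not called, with an amplitude of 0.02 ± 0.07. The fitted peak of Mcm6, CT3.74, then had an SE of 15.2 h and could not be ordered against that of Mcm7. The order of the first 5 changed without CT60 to CT65. There Mcm5 peaked earliest, at CT19.2, and Mcm3, not called, latest, at CT21.3. With Mcm7 then at CT1.28, its lag behind Mcm3 was shorter than over all pools.

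The lag of Mcm7 behind Mcm4 depended on the probe sets in size but not in sign. Over the 8 combinations of a Mcm7 with a Mcm4 probe set it was 2.45 to 5.01 h, and 8 of 8 intervals lay above 0. Without CT60 to CT65 it was 1.87 to 5.55 h, again with 8 of 8 intervals above 0.

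**Figure D2:**
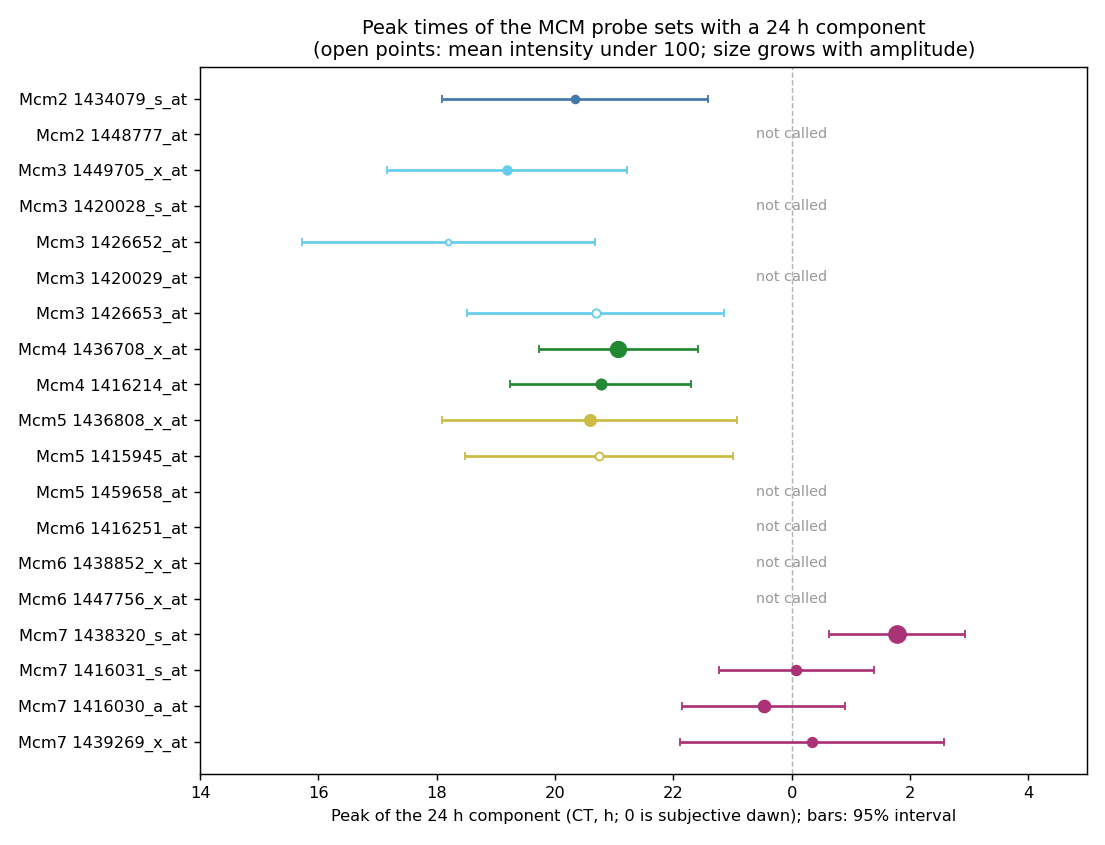
Peak of the 24 h component in circadian hours (x axis) for each of the 19 MCM probe sets (y axis), with its 95% interval; point size grows with amplitude, open points mark a mean intensity under 100, and probe sets without a call have no point. The Mcm2 to Mcm5 points lie between CT18.2 and CT21.1 and the 4 Mcm7 points between CT23.5 and CT1.78.

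The level of several MCM genes in a single stretch, CT42 to CT47, carried much of what was found, and this stretch was singled out after the values had been seen. For 10 of the 19 MCM probe sets the mean of these 6 pools was the highest of the 8 windows of 6 h, against 5.30% of all probe sets. Among those with a mean of at least 100 the count was 8 of 12, against 6.16%. These 10 probe sets came from all 6 genes.

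Mcm4 read 1110, 888.8, 783.4, 846.6, 682.4 and 642.1 in the pools from CT42 to CT47. At the same hours a cycle earlier, CT18 to CT23, it read 420.4, 475.3, 492.0, 579.7, 493.0 and 606.8. These windows did not overlap, and their log2 means differed by 0.68. Its other probe set, 1416214_at, differed by only 0.04. A lack of overlap in this direction was common, at 24.6% of all probe sets and 4 of the 19 MCM probe sets.

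Mcm6 read 1228, 1474, 1406, 1446, 1006 and 1418 from CT42 to CT47, and 711.2, 981.5, 1032, 558.7, 1041 and 762.5 from CT18 to CT23. For Mcm6, 5 of the 6 later pools were above the highest earlier one. Mcm5 read 702.3, 1038, 588.7, 816.9, 452.5 and 779.3 in the later window and 566.5, 549.6, 450.1, 317.0, 419.4 and 492.0 in the earlier one, where again 5 of 6 later pools were above all earlier ones.

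The Mcm7 probe sets differed less between the nights. The brightest read 2540 to 2935 from CT42 to CT47 and 2520 to 3700 from CT18 to CT23, and the difference of the log2 means was -0.07. For the others it was 0.23 (1416030_a_at), 0.10 (1439269_x_at) and 0.08 (1416031_s_at). Mcm3 differed by 0.04 and Mcm2 by 0.22, the latter mainly through the pools at CT42 and CT43. Against the other 42 pools the mean of CT42 to CT47 was higher by 0.78 for Mcm4, 0.66 for Mcm5, 0.65 for Mcm6, 0.37 for Mcm7, 0.24 for Mcm2 and 0.12 for Mcm3. Of all genes 0.247% had a larger difference than Mcm4 and 0.352% a larger one than Mcm6.

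Without CT42 to CT47 the 24 h component was called in 7 of the 19 probe sets, against 43.4% of all probe sets. It was called in 3 of the 6 genes (Mcm3, Mcm4 and Mcm7), against 8848 of all 18194 genes. Mcm5 then had an adjusted p of 0.780 and Mcm6 of 0.959. With CT60 to CT65 left out as well, 5 probe sets were called, against 16.4% of all, and the genes called were Mcm4 and Mcm7.

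Markers of other cells were read in the same pools. Kupffer cell markers, of resident liver macrophages, were higher from CT42 to CT47 in 5 of 7, against 11217 of all 18194 genes. Their median difference was 0.16, and their summed intensity was 79112 to 109252 there and 51908 to 123474 elsewhere. All 4 measured pancreatic acinar markers were higher, with a median difference of 1.0, and their sum was 5222 to 91210 there and 4387 to 285362 elsewhere. No Kupffer or acinar marker was at 0. The mean acinar profile had an r of 0.06 and the mean Kupffer profile an r of 0.42 with the mean MCM profile over the 48 pools. For the remaining cell types r was between -0.05 (erythroid) and 0.32 (endothelial). The median differences of hepatocyte, endothelial, stellate cell, lymphocyte, neutrophil, erythroid and bile duct markers were between -0.03 and 0.04. The median over all genes was 0.01, and the part of these cells in the MCM values was not tested.

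**Figure D3:**
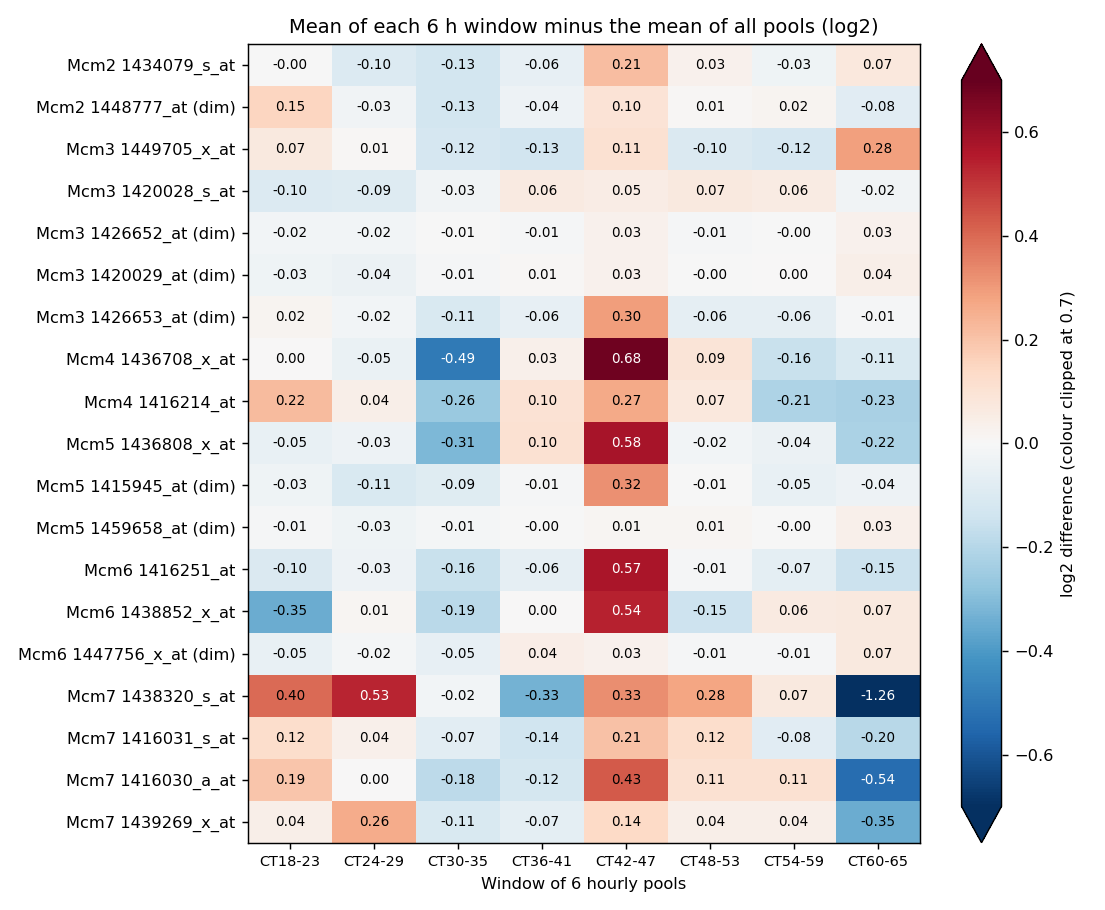
Mean log2 intensity of each window of 6 hourly pools (x axis) minus the mean of all 48 pools, for each MCM probe set (y axis), as colour and printed value; dim marks a mean intensity under 100. The column CT42 to CT47 is the highest of the row in 10 of 19 probe sets, and the lowest value is that of Mcm7 1438320_s_at at CT60 to CT65 (-1.26).

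Mcm7 was measured by 4 probe sets that differed in the last 6 pools. At CT61 the readings were 354.8 for 1438320_s_at, 418.6 for 1416030_a_at and 210.9 for 1439269_x_at, each the lowest of its series. The fourth, 1416031_s_at, read 1074 at CT61 and had its lowest value, 1000, at CT58. The mean of CT60 to CT65 was below that of the same hours in the first cycle by 0.93, 0.41 and 0.28 on the log2 scale for the first 3 in that order, and by 0.06 for the fourth. The deep fall of Mcm7 in the late pools was thus seen by some of its probe sets and not by all, and it lay in arrays that stood apart.

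Whether the level of the MCM genes shifted from the first cycle to the second was tested in the same model, with a term for the cycle in place of the trend. The second cycle was higher in 5 of the 19 probe sets, against 43.1% of all, and lower in 1, against 12.1%. The higher ones were Mcm2 1434079_s_at, by 0.14 ± 0.04 (adjusted p = 0.00413), Mcm6 1438852_x_at, by 0.26 ± 0.11 (adjusted p = 0.0434), and 3 dim probe sets of Mcm3 and Mcm5. The lower one was Mcm7 1438320_s_at, at -0.29 ± 0.11 (adjusted p = 0.0277), which was -0.08 without CT60 to CT65 and the same hours of the first cycle (adjusted p = 0.400). The difference of the brightest Mcm4 probe set, 0.25 ± 0.11, missed the threshold (adjusted p = 0.0539). Leaving out any one of 12 pools (CT24, CT25, CT30, CT33, CT35, CT37, CT39, CT49, CT53, CT61, CT62 or CT65) made it a call, with adjusted p between 0.0186 and 0.0491. The other Mcm4 probe set, 1416214_at, gave -0.05 ± 0.06 (adjusted p = 0.487). Mcm6 1416251_at gave 0.18 ± 0.10 (adjusted p = 0.153) and the dim Mcm2 1448777_at 0.02 ± 0.05 (adjusted p = 0.760).

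The shape of the 24 h wave differed between cycles in 1 of 19 probe sets, Mcm3 1449705_x_at, against 5.88% of all. Its amplitude rose from 0.10 to 0.25 from one cycle to the next (adjusted p of the interaction 0.0159). For Mcm6 the amplitudes were 0.02 and 0.31, but the interaction was not called (adjusted p = 0.375). Fitted to the first cycle alone, a 24 h component was called in 4 of the 19 probe sets, against 13.6% of all. These were 3 of Mcm7 and Mcm4 1416214_at (adjusted p = 0.0128), while through the brightest probe sets only Mcm7 was called. In the second cycle alone it was called in 9 of the 19 probe sets, against 54.1% of all probe sets, and in 4 of the 6 genes (Mcm3, Mcm4, Mcm6 and Mcm7).

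Coherence of the 6 genes was described by the correlation of their log2 profiles over the 48 pools, which share arrays and hourly neighbours, so no p is given. The median r of the 15 gene pairs was 0.29, from -0.17 to 0.73, and 13 pairs were above 0. Through the brightest probe sets r was highest among Mcm4, Mcm5 and Mcm6, at 0.73 for Mcm5 with Mcm6, 0.62 for Mcm4 with Mcm5 and 0.47 for Mcm4 with Mcm6. With the fitted waves and trend removed these were 0.72, 0.54 and 0.37. The residual r of Mcm7 with Mcm4, Mcm5 and Mcm6 was 0.44, 0.38 and 0.39, no lower than that of Mcm4 with Mcm6.

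Mcm5 and Mcm6 were each the closest of all genes to the other, at rank 1 of 18193. Mcm4 was at rank 5 for Mcm5 and at rank 23 for Mcm6, whereas from the side of Mcm4 these genes were at ranks 30 and 323. Against the mean of the other members Mcm5 was at rank 8, Mcm4 at 23 and Mcm6 at 27 of 18189 genes. Mcm2 was at rank 1273, Mcm3 at 2439 and Mcm7 at 8682. The gene closest to the brightest Mcm7 probe set was Oma1, at r = 0.935. With the other Mcm7 probe sets its r was 0.635 to 0.759.

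Mcm7 correlated with Mcm2 at -0.16 and with Mcm3 at -0.17, and with Mcm4, Mcm5 and Mcm6 at 0.24, 0.25 and 0.29. Through another probe set, 1416030_a_at, its r with the brightest probe sets of Mcm4, Mcm5 and Mcm6 was 0.48, 0.54 and 0.49. Other probe sets also changed the values within the group, as r was 0.59 for Mcm4 1416214_at with Mcm6 1416251_at and 0.20 with Mcm6 1438852_x_at. Without CT60 to CT65 all 15 pairs were above 0 and the median was 0.33. Without CT42 to CT47 the median was 0.14, while Mcm5 with Mcm6 was at 0.61, Mcm4 with Mcm5 at 0.50 and Mcm4 with Mcm6 at 0.23.

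**Figure D4:**
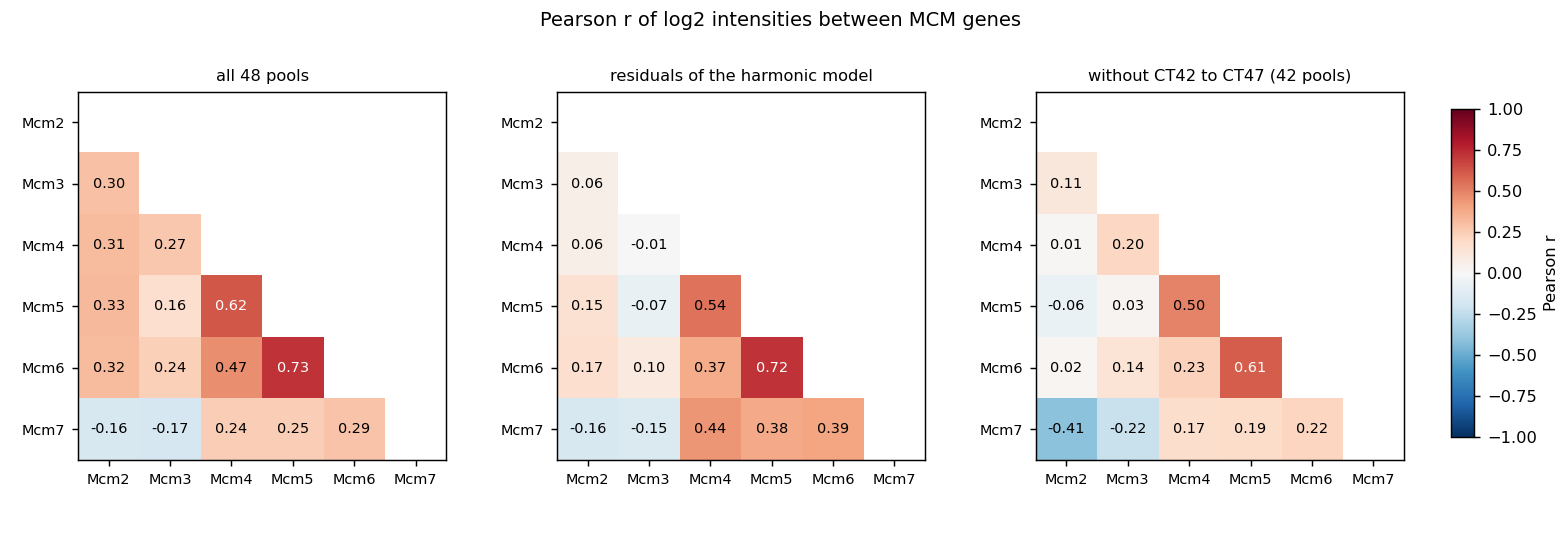
Pearson r between the log2 intensities of the MCM genes, as colour and printed value, over all 48 pools (left), after removal of the fitted trend and waves (middle) and without CT42 to CT47 (right). Mcm5 with Mcm6 is highest in all 3 panels, at 0.73, 0.72 and 0.61.

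The 10 genes closest to the mean standardised MCM profile had r between 0.67 and 0.74. They were Slc35b1, a nucleotide transporter of the endoplasmic reticulum (0.74), Pdlim1 (0.72), the metalloproteinase gene Mmp19 (0.72), Tmem147 (0.71), the interferon-induced Bst2 (0.71), the splicing factor gene U2af1 (0.70), the sodium pump subunit gene Atp1b3 (0.68), the chaperone gene Dnajc3 (0.67), Psph, which encodes the last enzyme of serine synthesis (0.67), and Erp29 (0.67). Their 24 h components peaked between CT20.1 and CT23.0. None of them is in the replication lists, and likeness over the same 48 pools says nothing of function.

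Genes that act with the MCM complex were read from 6 lists of 93 genes, of which 90 were measured. A 24 h component was called in 38 (42.2%), against 52.7% of all genes. Their peaks were spread over the cycle, with 16 between CT12 and CT18, 11 between CT6 and CT12, 6 between CT18 and CT24 and 5 between CT0 and CT6.

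In the origin licensing list 5 of 13 genes were called, with peaks between CT7.21 and CT16.5. Cdt1, the loader of the ring, had an amplitude of 0.71 ± 0.11 and peaked at CT7.21 (adjusted p = 8.41e-06). Gmnn, which encodes the CDT1 inhibitor geminin, had 0.40 ± 0.04 and peaked at CT10.8 (adjusted p = 9.7e-11). Mcm10, a separate replication factor outside the ring, peaked at CT9.69 through its brightest probe set and at CT10.7 and CT17.1 through the others. The CT17.1 peak came from a dim probe set, with a mean of 53.8 and an amplitude of 0.01. Cdc6, also dim with a mean of 70.6, peaked at CT16.5 with an amplitude of 0.05, and Orc2 at CT9.48.

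Of the 14 helicase activation genes 4 were called. Gins4, a GINS subunit, peaked at CT13.7 and Dbf4, the activator of the CDC7 kinase that phosphorylates the ring, at CT8.30. Gins2 peaked at CT16.9 and Recql4 at CT23.4, with amplitudes of 0.02 and 0.05. Cdc45 had an amplitude of 0.02 ± 0.01 and was not called (adjusted p = 0.479). The median amplitude of this list was 0.04, against 0.06 over all genes and 0.23 over the 6 MCM genes. These medians were not taken at like brightness. A mean of at least 100 was reached by 7 of the 14 genes, 11186 of all 18194 genes and all 6 MCM genes.

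Of 23 replication fork genes 10 were called. Prim1, the catalytic primase subunit, had an amplitude of 0.52 ± 0.08 and peaked at CT22.7 (adjusted p = 4.52e-06). It was higher by 0.66 from CT42 to CT47 than in the other pools and had an r of 0.66 with the mean MCM profile, at rank 13 of all genes outside the complex. Rfc5, a clamp loader subunit, peaked at CT3.75, Rpa1, which coats single-stranded DNA, at CT4.07 and Rnaseh2a at CT15.9.

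Of the 6 measured genes of deoxynucleotide supply 2 were called. Rrm2, the regulated subunit of ribonucleotide reductase, had an amplitude of 0.88 ± 0.07 and peaked at CT14.2 (adjusted p = 1.16e-13). Tk1, thymidine kinase, peaked at CT15.8 with 0.36 ± 0.04. Their difference between CT42 to CT47 and the other pools was -0.01 and 0.20.

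Of 19 genes of the E2F and RB list 11 were called. Tfdp2, a partner of the E2F factors, peaked at CT11.0, Ccne2, cyclin E2, at CT15.4, Cdkn1a, the cell cycle inhibitor p21, at CT22.0 and Rb1 at CT5.75. E2f8, a repressor of the E2F family, was chosen after its values were seen. It peaked at CT20.4 with 0.34 ± 0.07 (adjusted p = 0.00151) and was 0.81 higher from CT42 to CT47 than in the other pools. Of 15 mitosis genes 6 were called, among them Cenpa at CT7.02, Cdk1 at CT14.5, Aurkb at CT16.6 and Bub1 at CT16.4. The means of Aurkb and Bub1 were under 100.

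From CT42 to CT47 the median difference from the other pools was 0.51 over the 6 MCM genes. It was between -0.01 and 0.06 in each of the 6 lists of replication and cell cycle genes. Small medians did not mean that no list followed the MCM profile. The mean profile of the replication fork list had an r of 0.64 with the mean MCM profile over all pools. In that list 18 of 23 genes were higher from CT42 to CT47, against 11217 of all 18194 genes. For the other lists r lay between -0.13 (origin licensing) and 0.32 (deoxynucleotide supply). The 5 called genes of the complex peaked from CT19.2 to CT1.78. Of the 38 called genes of the 6 lists, 27 peaked between CT6 and CT18, a window that held 66.03% of all genes with a 24 h component.

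**Figure D5:**
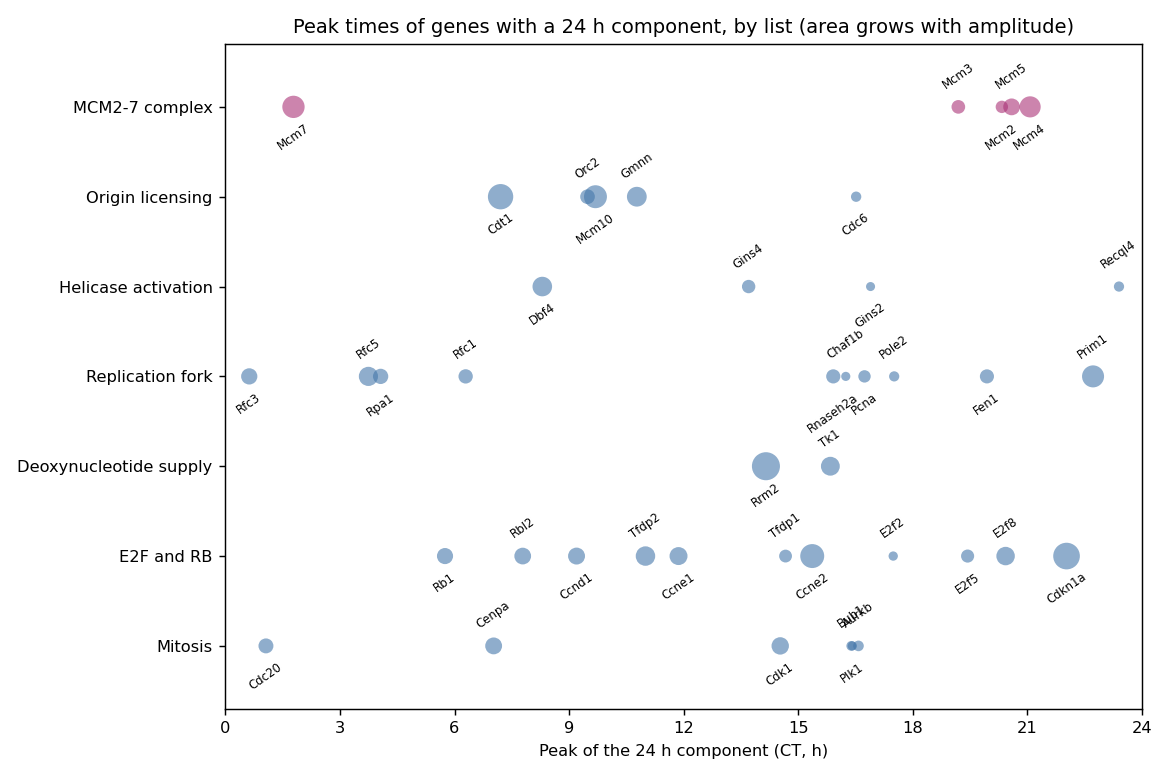
Peak of the 24 h component in circadian hours (x axis) of every gene with a call, by list (y axis), with point area growing with amplitude. The MCM genes (purple) lie at CT19.2 to CT21.1 and at CT1.78, while Cdt1 lies at CT7.21 and Rrm2 at CT14.2.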

How the data were processed

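The authors hybridised each hourly liver pool to 1 Affymetrix mouse expression array. By the methods of the study the deposited intensity values come from GCRMA, a procedure that corrects background, normalizes arrays and summarises each probe set. The labels also name MAS5, without a version, and which method gave the values was not tested. The deposited intensities of 45101 probe sets are linear and were converted to log2. No array was left out, and the number of arrays and the signal over background limit the precision. P-values measure the scatter of pools, since no hour had a replicate.

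A linear trend with cosine and sine pairs at 24, 12 and 8 h was fitted to all probe sets in limma 3.58.1 (R 4.3.3), with a moderated F-test per pair and Benjamini-Hochberg adjustment. Cycles were compared with a term for CT42 to CT65 against CT18 to CT41, alone and in interaction with each pair. The amplitude is the size of the fitted wave on the log2 scale, from mean to peak, and intervals of peak times come from the errors of its coefficients. Fisher's G-test over 23 frequencies and a cosine fit over 4 to 30 h, with 1000 scramblings, were converted to Storey q-values. Both procedures were tested on simulated data. Python 3.11.15 with numpy 2.4.6, pandas 2.3.3 and scipy 1.17.1 did the rest.

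Symbols come from the platform annotation, and a gene is represented by its brightest probe set. All 19 MCM probe sets, the 10 genes closest to the mean MCM profile, the 4 called genes with the smallest p in each pathway list, and Wee1, Arntl and Dbp were named. Members, lists and tests were chosen with earlier results of these data known. Leaving out CT42 to CT47 and the interaction with the cycle were added after seeing the values. The lists cover origin licensing, helicase activation, the fork, deoxynucleotide supply, E2F and RB, mitosis, and markers of hepatocytes, Kupffer, endothelial, stellate, bile duct, erythroid and acinar cells, lymphocytes and neutrophils. Alternatives were linear values, quantile normalization, dim probe sets left out, other trends and models, single cycles, and pools left out.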

Additional observations from a re-analysis of the deposited data

Results flagged for a closer look

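The 24 h wave of Mcm3, read by 1449705_x_at, differed between the first and the second cycle. Its amplitude was 0.10 from CT18 to CT41 and 0.25 from CT42 to CT65, and its peak CT22.7 and CT17.1. The interaction in limma, which takes amplitude and phase together, had an adjusted p of 0.0159. The pools at CT60 to CT65 hold 3 of the 4 highest Mcm3 values, and their part in this difference was not tested. No other MCM probe set differed in this way, where 5.88% of all probe sets did.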

How the results depend on the processing

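Counts of MCM genes and probe sets moved most with the pools used. A 24 h component was called in 5 genes and 12 probe sets. These became 1 and 4 in the first cycle alone and 3 and 7 without CT42 to CT47. They were 2 and 5 without that window and CT60 to CT65, and 4 and 8 after quantile normalization. The share of all probe sets called moved as well, from 47.4% to 13.6% in the first cycle alone. It was 43.4% without CT42 to CT47 and 16.4% without both windows. No such share is given for quantile normalization, nor for the 12 h counts below. Leaving out single pools gave 4 to 6 genes and 10 to 13 probe sets. A 12 h component was called in 1 probe set, in 0 in the first cycle alone, without CT42 to CT47 and without both windows, and in 3 probe sets and 2 genes in the second cycle alone, and in 0 to 1 without single pools. Both tests together called 5 probe sets, 3 after quantile normalization and 2 where the G-test followed removal of a linear trend. The second cycle was higher in 5 probe sets, in 1 with dim probe sets left out, in 3 without CT42 to CT47, in 8 without CT60 to CT65 and CT36 to CT41, and in 3 to 6 without single pools (3 without CT18, CT19, CT20, CT21, CT43, CT44, CT55 or CT63). It was lower in 1, and in 0 without CT60 to CT65 and CT36 to CT41. With the hour of day as a block, which pairs each hour with the same hour of the next cycle, it was higher in 4 and lower in 1, and the block changed no call among the 6 genes. The Mcm6 wave was not called over all pools but was called in the second cycle alone (adjusted p = 0.0260). Its amplitude was 0.0241 ± 0.0731 without CT42 to CT47 and 0.00927 ± 0.0908 without both windows. The SE of its peak was then 15.2 and 35.1 h, so its phase was not defined. The causes were not tested. Mcm4 and Mcm7 kept their 24 h call under every alternative except Mcm4 in the first cycle alone (adjusted p = 0.0706). Mcm2 lost its call after quantile normalization (adjusted p = 0.0962) and without the trend (adjusted p = 0.0757), and Mcm5 on linear values (adjusted p = 0.0596). The median correlation of gene pairs, 0.29 over all pools, was 0.13 in the first cycle alone, 0.14 without CT42 to CT47 and 0.36 in the second cycle alone. The SD between pairs over all pools was 0.23, which does not measure the error of that median. The total over the pathway lists moved by less than 1.5 times, but without CT60 to CT65 helicase activation fell from 4 to 2 genes and mitosis from 6 to 3. Signal near the background limits the 7 dim probe sets.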
